A study of Mus musculus with 27 samples.

Results

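Genes of the mitotic machinery were followed through the growth and maturation of the mouse retina. The 44 members, from the proliferation marker Mki67 to the cyclins, kinases, kinetochore proteins, kinesins and condensins, were the rows whose gene symbol equaled a listed name, out of 38168 features in the table, and all 44 were found. Nek2 and Nusap1 had more than 1 row, and the row with the highest mean was used. RNA-seq had been run on whole retina of C57BL/6J mice, a common inbred strain, at embryonic days 14 (E14, n = 3) and 17 (E17, n = 3) and postnatal days 1 (P1, n = 4), 6 (P6, n = 3), 15 (P15, n = 4), 28 (P28, n = 4) and 60 (P60, n = 6). No mutant or treatment was part of these groups. Most libraries were pools of several animals, of mixed sex in embryos and at P1 and male at later ages, while the P60 group held 2 pools of 3 mice and 4 single mice. Sex composition thus changed together with age between P1 and P6, where the effects of both cannot be told apart. The question put to these genes was when their transcripts are lost. Levels are given in cpm, the reads of a gene scaled to the total reads counted in that library.

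A dividing cell copies its DNA, condenses the copies into chromosomes, attaches them to a microtubule spindle, and separates them before the cell body is cut. Transcripts for this machinery are made mainly in the late cell cycle and are scarce in cells that have left it. In the retina, multipotent progenitors divide in the outer part of the embryonic and early postnatal tissue and give rise to all neurons and to Müller glia, while vascular and other non-neural cells can also divide. In RNA from whole tissue, fewer cells of a type and less RNA per cell cannot be told apart.

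Many late cell cycle promoters carry a short element called CHR (TTTGAA), bound by the MuvB repressor and activator complexes, and CCAAT boxes bound by NF-Y. Promoter windows from 250 bases before to 50 after the RefSeq start (GRCm38.p6) were at hand for 37 of the 44 members. TTTGAA, read on both strands, was in the window of 29 members (78.4%), against 20.2% of the 27025 genes with a window, and CCAAT, read on both strands, was in 28 members (75.7%) against 41.1% of all genes. Both motifs were found in 24 members (64.9%) and in 7.97% of all genes. These are matches of letters, not bound sites. The 120 bases before the start are shown for Cdk1, Top2a, Mki67 and Cdc20, which fell after birth and stayed low, and for Spc25, which did not stay low, with TTTGAA and CCAAT in capitals in either orientation (TTCAAA and ATTGG on the other strand).
Cdk1, chr10:69352913-69353032, minus strand: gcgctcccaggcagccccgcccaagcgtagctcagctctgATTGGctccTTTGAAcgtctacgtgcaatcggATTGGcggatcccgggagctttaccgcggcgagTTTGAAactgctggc
Top2a, chr11:99024190-99024309, minus strand: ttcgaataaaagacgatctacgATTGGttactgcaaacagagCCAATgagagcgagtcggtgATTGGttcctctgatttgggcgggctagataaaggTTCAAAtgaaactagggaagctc
Mki67, chr7:135716380-135716499, minus strand: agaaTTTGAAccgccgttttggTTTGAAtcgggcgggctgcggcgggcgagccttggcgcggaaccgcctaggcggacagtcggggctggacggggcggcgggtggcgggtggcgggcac
Cdc20, chr4:118437344-118437463, minus strand: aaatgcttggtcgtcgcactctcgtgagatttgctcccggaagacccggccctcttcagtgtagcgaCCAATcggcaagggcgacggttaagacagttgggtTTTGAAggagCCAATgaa
Spc25, chr2:69206214-69206333, minus strand: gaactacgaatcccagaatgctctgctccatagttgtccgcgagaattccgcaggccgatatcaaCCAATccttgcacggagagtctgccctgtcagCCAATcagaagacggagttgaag
In these 120 bases Cdk1 held 2 matches to TTTGAA and 2 to CCAAT, Top2a held 1 and 3, Mki67 held 2 and 0, Cdc20 held 1 and 2, and Spc25 held 0 and 2. In its full 300 base window Spc25 had 1 match to TTTGAA. Other members that stayed low lacked it too. Ccnb2 and Hmmr held 0 matches to TTTGAA in the 120 bases, and Bub1, Ccnb1 and Birc5 held 0 in the full window. A link between the motif and the later level was not tested.

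The libraries held 7076646 to 11330762 counted reads, so that 3 reads, taken as the floor of detection, amounted to at most 0.424 cpm in any of them. The tissue label was checked with marker sums. The median sum of 10 retinal progenitor markers went from 2391 cpm at E14 to 1524 at P1, 580 at P6 and 183 at P60, while 7 photoreceptor markers went from 101 to 25031 cpm over the same span. The P60 libraries were not alike. By a chi-square over all genes, which has a value near 1 per degree of freedom when libraries differ by counting error alone, replicates 1 and 2 differed by 3.29 and replicates 3 to 6 by 4.62 to 9.31 among themselves, against 8.36 to 21.5 between both sets. Which of the 6 came from pools was not given, and its part in results at P60 was not tested. Lens markers summed to at most 7.85 cpm in each of the 27 libraries. The median sum of 6 retinal pigment epithelium markers was 5.89 cpm at E14, 28.9 at P15 and 10.1 at P60. That of 6 blood markers was 14.1 cpm at P1, 45.1 at P6 and 23.6 at P60. The part of such tissue in the results was not tested.

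Before birth and at P1 the mitosis genes were close to their E14 levels. The median over the 44 members was 89.4% of the E14 mean at E17 and 85.7% at P1. At E17 the members ranged from 63.4% (Plk1, a kinase that drives mitotic entry and spindle assembly) to 139.6% (Spc25, a subunit of the NDC80 kinetochore complex), and at P1 from 59.4% to 171.1% for the same genes. By limma with Benjamini-Hochberg adjustment, 0 of 44 members passed both an adjusted p of 0.05 and a change of at least 1 on the log2(cpm + 1) scale from E14 to E17, where 0.702% of all features were called lower and 2.9% higher. At an unadjusted p under 0.05, limma gave 3 members lower and 1 higher, against 7.47% and 13.0% of all features, and edgeR called 0. From E17 to P1 the count was again 0 in limma and in edgeR (0.614% of features lower and 1.23% higher), with 1 member lower and 2 higher at an unadjusted p under 0.05 in limma, against 8.13% and 11.6% of all features.

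The drift was small but mostly one way. In the E14 to E17 comparison 41 of 44 members had a log2 fold change below 0, against 45.8% of all features, and in 27 members every E17 library lay below every E14 library, a pattern seen in 16.2% of features. Over the longer span from E14 to P1, a comparison added after the data had been seen, 0 members were called in limma or edgeR (2.42% of features lower, 6.02% higher), although 11 were lower and 1 higher at an unadjusted p under 0.05 in limma, against 14.5% and 22.3% of all features. On the adjusted p alone, limma gave 8 members lower, against 10.6% of all features, and 1 higher, against 17.2%. At P1, Plk1 had 22.2 ± 1.63 cpm (SD, n = 4), compared with 37.3 ± 0.674 in the 3 E14 libraries, a log2 fold change of -0.73 (SE 0.22, limma adjusted p = 0.011). Ube2c, the ubiquitin enzyme of the anaphase-promoting complex, went from 9.43 ± 0.426 to 5.67 ± 0.353 cpm (log2 fold change -0.64, SE 0.19, limma adjusted p = 0.0095). Mki67 had 2156 ± 59.2 cpm at E14, 2296 ± 143 at E17 and 2259 ± 176 at P1, and its groups overlapped.

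**Figure D1:**
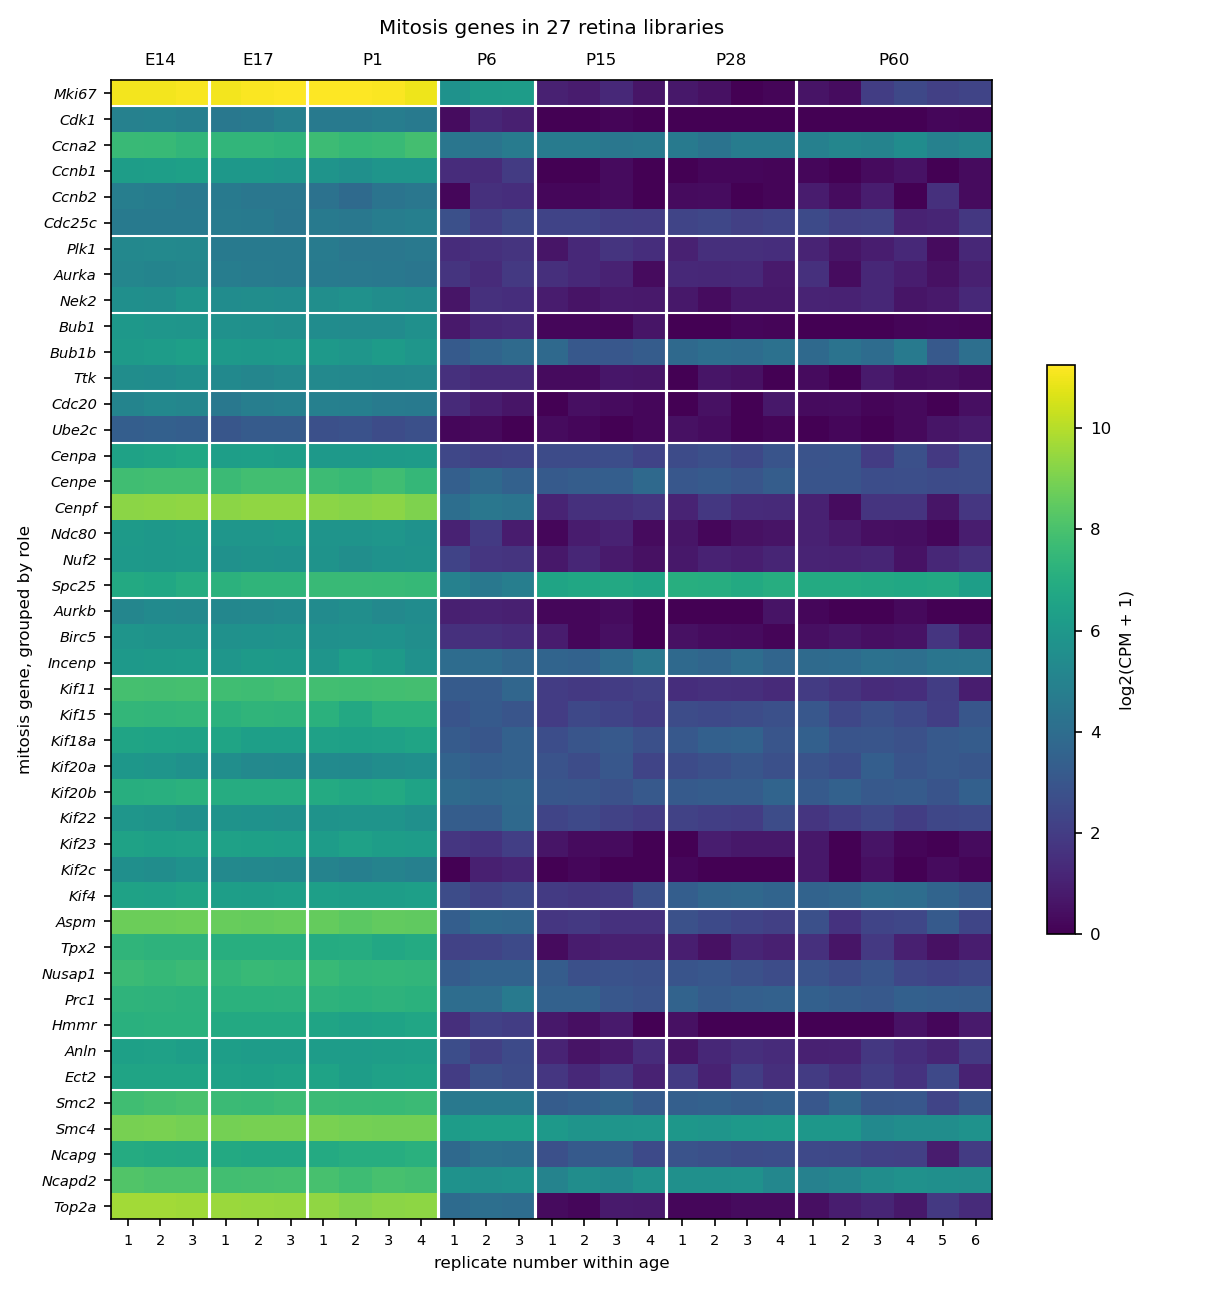
Each cell is 1 gene in 1 library, colored by log2(cpm + 1), with the 44 mitosis genes in rows grouped by role (white horizontal lines) and the 27 libraries in columns grouped by age (white vertical lines). Nearly all rows darken between P1 and P6, and Spc25 regains its color at P15.

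Between P1 and P6 every member fell. All 44 were called lower, against 6.74% of all features, with a median log2 fold change of -3.82 and a range from -5.26 (Top2a) to -1.98 (Kif20a, a cytokinetic kinesin), while the median of all features was near 0. Kif20a shares 1271 exon bases with Cdc23 on the other strand. Cdc23 had 153.8 cpm at P1 and 108.4 at P6, and its part in the Kif20a level was not tested. In each of the 44 genes all 3 P6 libraries lay below all 4 P1 libraries, which held for 25.4% of features. edgeR also called 44, and 8.84% of all features, lower. The median member stood at 4.62% of its E14 mean at P6, and 33 of the 44 stood under 10%. Measured against the highest group mean among E14, E17 and P1, 43 of 44 genes crossed both 50% and 25% between P1 and P6. Spc25, at 23.4% of E14 at P6, crossed both marks in the same interval and then returned above them. No lasting fall was therefore assigned to it.

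Fewer genes fell further over the following 9 days. From P6 to P15, 15 members were called lower (3.31% of all features) and 1, Spc25, was called higher (4.74% of features), with a median log2 fold change of -0.84. The count depended on how low values were treated. edgeR, fitted to the reads, called 25 lower and 1 higher, against 4.86% and 8.199% of all features, whereas the addition of 1 cpm in the limma fit shortens the fold change of genes at a few cpm. In 27 members all 4 P15 libraries lay below all 3 P6 libraries, against 24.3% of features.

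To ask whether the later step was smaller than the earlier one, the difference between both steps was tested. On the log2(cpm + 1) scale a gene at x cpm can fall by no more than log2(x + 1), and for 29 of the 44 members the P6 level left less room than the fall from P1 to P6, so that their difference was fixed in advance and says nothing. limma called 43 of 44 with the smaller fall after P6 (6.86% of features were called in that direction), of which 14 were among the 15 members with room to fall as far again. edgeR, on the reads, called 33 of the 44, against 5.54% of features, and 13 of these 15. Mki67 was not called by either test, with a difference of 0.04 (SE 0.56, limma adjusted p = 0.976). Top2a, Cdk1 and Ccnb1, which had no such room, had differences of 0.33, 0.53 and 0.07 in edgeR, with adjusted p-values of 0.768, 0.997 and 0.941. Smc4, which had room, had a difference of 2.31 in edgeR (adjusted p = 3.02e-12).

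**Figure D2:**
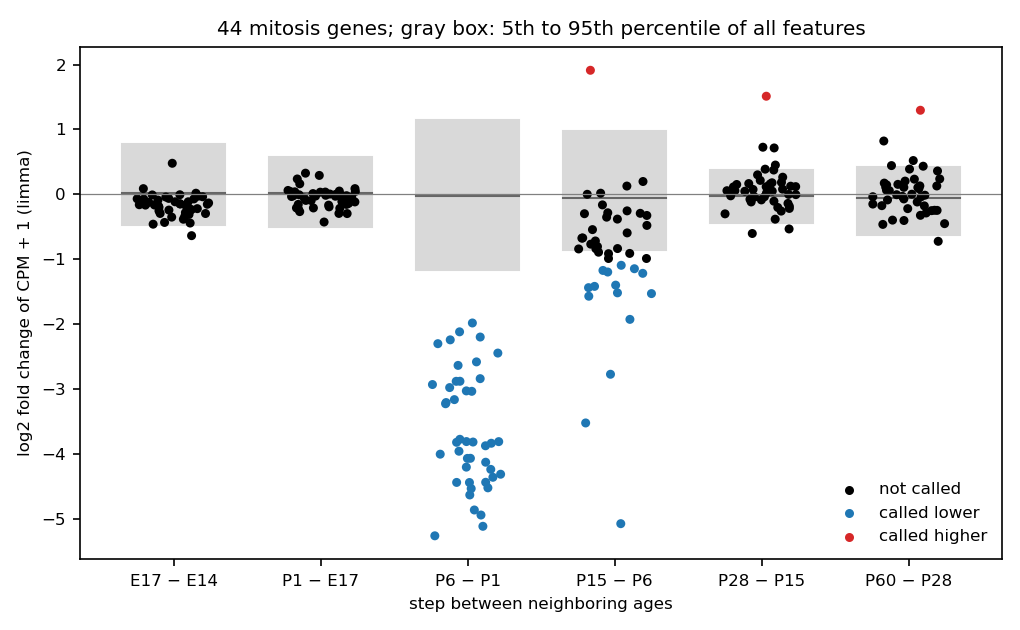
Each point is the log2 fold change of cpm + 1 of 1 mitosis gene over 1 step between neighboring ages, blue where limma called it lower, red where higher and black otherwise; gray boxes span the 5th to 95th percentile of all 31760 features tested and the gray line is their median. All 44 points of the P6 − P1 step lie between -5.26 and -1.98, below the box, and the 3 red points are Spc25, Kif4 and Mki67.

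Mki67 (chr7:135689784-135716361, minus strand) encodes Ki-67, which coats mitotic chromosomes and is the usual marker of dividing cells. Its 4 P1 libraries had 2355, 2366, 2315 and 1997 cpm, and its 3 P6 libraries had 51.4, 71.3 and 72.1 cpm. At P15 the values were 1.07, 0.790, 1.46 and 0.550 cpm. The groups were far apart at each step: the level fell by 5.11 on the log2 scale from P1 to P6 (SE 0.32, limma adjusted p = 1.21e-14) and by 5.07 from P6 to P15 (SE 0.32, limma adjusted p = 4.68e-14). It stood at 3.01% of E14 at P6 and at 0.0449% at P15.

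Mki67 was also the member called higher from P28 to P60. The P28 libraries had 0.666, 0.421, 0 and 0.126 cpm, from 5, 3, 0 and 1 reads, and the 6 P60 libraries ran from 0.282 to 4.42 cpm with a median of 3.28. Replicates 3 to 6 of P60 had 25 to 40 reads, above all P28 libraries, and replicates 1 and 2 had 4 and 2 reads, inside the P28 range. The log2 fold change was 1.30 (SE 0.27, limma adjusted p = 0.00519), the only member called in 44, with 0.0756% of features called higher. In a fit of these ages alone the adjusted p was 0.193, so the call was lost, while edgeR gave a log2 fold change of 3.16 with an adjusted p of 0.00189. edgeR also called Top2a in this step. Without P60 replicates 1 and 2, left out after the data had been seen, the limma log2 fold change was 1.88 for Mki67 and 1.02 for Top2a. These 2 libraries were the ones low in Mki67, so a larger change of Mki67 without them was fixed by the choice and is no test of a rise. Even so the P60 mean of Mki67 was 0.121% of that at E14. The reads of Mki67 divided the P60 libraries as the chi-square over all genes did, and the part of that division in the result was not tested.

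The condensins and topoisomerase shape and untangle chromosomes. Top2a (chr11:98992943-99024189, minus strand), which passes DNA strands through each other, had 671, 565, 630 and 647 cpm at P1, 14.4, 16.4 and 15.4 at P6, and 0.268, 0.132, 0.730 and 0.687 at P15. No group overlapped the next. It fell by 5.26 on the log2 scale from P1 to P6 (SE 0.19, limma adjusted p = 3.15e-20) and by 3.52 from P6 to P15 (SE 0.19, limma adjusted p = 2.54e-15). At P28 no library had over 3 reads, which puts the E14 mean at least 2031-fold higher. The condensin subunits kept more. Smc4, a core ATPase of both condensin complexes, fell from 476.5 ± 15.4 cpm (SD, n = 4) at P1 to 76.0 ± 2.79 at P6 (SD, n = 3), and had 50.7 ± 8.93 cpm at P60 (SD, n = 6), or 10.4% of E14. Ncapd2 stood at 15.2% of E14 at P60, whereas Ncapg, of the same condensin I complex, stood at 2.82% and Smc2 at 3.14%.

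The cyclins and Cdk1 form the kinase that starts mitosis. Cdk1 (chr10:69335146-69352938, minus strand), its catalytic subunit, had 23.8, 23.3, 26.2 and 23.8 cpm at P1 and 0.283, 1.30 and 0.965 cpm at P6, a fall of 3.81 on the log2 scale (SE 0.18, limma adjusted p = 7.95e-18). None of the 4 P28 libraries had a read of Cdk1, which allows up to 0.421 cpm in the shallowest of them and puts the E14 mean at least 73.9-fold higher. Ccnb1 and Ccnb2, the B-type cyclins, went from 54.6 ± 4.0 and 18.1 ± 2.92 cpm at P1 (SD, n = 4) to 2.07 ± 0.715 and 1.29 ± 1.0 at P6 (SD, n = 3), and both were at or under 3 reads in every P15 and P28 library. In P6 replicate 1, Ccnb2 had 0.141 cpm, against 1.95 and 1.79 in the other P6 libraries.

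Ccna2 (chr3:36564865-36572150, minus strand), cyclin A2, was called at no step after P6. It fell from 206.2 ± 21.3 cpm at P1 to 21.2 ± 2.69 at P6 (log2 fold change -3.22, SE 0.12, limma adjusted p = 2.97e-20) and then stood at 23.2 ± 1.94 at P15, 23.3 ± 3.25 at P28 and 33.9 ± 5.05 at P60, 18.4% of E14. The 6 P60 libraries, from 29.0 to 43.0 cpm with a median of 33.1, all lay above the 4 at P28, but the change of 0.52 was under the fold limit. Exons of Ccna2 share 510 bases with Exosc9 on the other strand, and whether the counting used strand was not stated. Exosc9 had 22.4 cpm at P28 and 22.9 at P60, and its part in the Ccna2 level was not tested. Cdc25c, the phosphatase that activates Cdk1, kept 11.9% of its E14 level at P60.

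Among the mitotic kinases, Plk1, Aurka and Nek2 were all called lower from P1 to P6 and in neither direction at any later step by limma, although edgeR called Nek2 lower from P6 to P15 (log2 fold change -1.02, adjusted p = 0.0299). Aurka, which acts at spindle poles, went from 22.1 ± 1.58 cpm at P1 (SD, n = 4) to 2.17 ± 0.505 at P6 (SD, n = 3) and 0.984 ± 0.625 at P60 (SD, n = 6). Nek2, a centrosome kinase, went from 45.6 ± 3.39 to 1.43 ± 0.757 and 1.07 ± 0.370 cpm at these ages. Their P60 means were 2.87% and 2.14% of E14.

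Spindle checkpoint genes, which hold cells until all chromosomes are attached, split in their late levels. Bub1 had 43.2, 41.3, 41.7 and 48.6 cpm at P1 and 0.706, 1.41 and 1.52 cpm at P6, and at P60 had 0 or 1 read in each of the 6 libraries, so that the E14 mean was at least 156-fold higher. Ttk ended at 0.745%. Bub1b, the partner of Bub1 in the checkpoint, fell by 2.44 on the log2 scale from P1 to P6 (SE 0.21, limma adjusted p = 4.82e-11) and kept 11.04 ± 2.80 cpm at P6 (SD, n = 3), 9.18 ± 2.87 at P15 (SD, n = 4) and 15.7 ± 5.35 at P60 (SD, n = 6), which was 21.3% of E14. Bub1b shares no exon bases with another annotated gene.

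Cdc20, the activator of the anaphase-promoting complex, had 28.6, 28.2, 24.7 and 23.9 cpm at P1 and 1.55, 0.865 and 0.552 at P6, with no overlap (log2 fold change -3.81, SE 0.20, limma adjusted p = 2.2e-16). Its P60 libraries held at most 3 reads each, and the E14 mean was at least 91.6-fold higher than that floor. Ube2c, the lowest member per length at E14, fell from 5.76, 6.05, 5.20 and 5.68 cpm at P1 to 0.141, 0.216 and 0 at P6 (log2 fold change -2.58, SE 0.19, limma adjusted p = 6.61e-13). No P6 library had more than 3 reads of it, so how much further it might have declined was not detectable at this depth.

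The centromere and kinetochore genes link chromosomes to the spindle. Cenpf, the member of this group with the highest cpm, went from 592.9 ± 45.6 cpm at P1 to 18.5 ± 2.57 at P6 and 1.87 ± 0.475 at P15, and was called lower at both steps (log2 fold changes -4.94 and -2.77, SE 0.23 each, limma adjusted p = 1.22e-17 and 4.25e-11). Nuf2, a subunit of the NDC80 complex, was called at both steps too (-3.81 and -1.09), though the second change was under the fold limit without P6 replicate 1 (-0.91) or without P15 replicate 4 (-0.99). Cenpa, the centromeric histone, and Cenpe, a kinetochore motor, had 4.17% and 4.91% of E14 at P6 and 5.11% and 2.5% at P60.

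Spc25 (chr2:69193895-69206194, minus strand), which binds Nuf2 and Ndc80 within the same complex, was the exception. Its P1 libraries had 197, 197, 189 and 183 cpm, its P6 libraries 30.1, 21.4 and 27, and its P15 libraries 93.8, 103, 108 and 96.9. The P6 libraries lay below all others. Spc25 fell by 2.84 on the log2 scale from P1 to P6 (SE 0.11, limma adjusted p = 6.34e-20) and rose by 1.91 from P6 to P15 (SE 0.11, limma adjusted p = 4.13e-15). It then stood at 124.2 ± 8.64 cpm at P28 (SD, n = 4) and 104.9 ± 13.9 at P60 (SD, n = 6), so that P60 was 93.7% of E14. Ndc80 and Nuf2, in contrast, had 0.576 ± 0.350 and 1.22 ± 0.487 cpm at P60. Spc25 shares no exon bases with another annotated gene. The photoreceptor marker sum went from 3624 cpm at P6 to 16235 at P15 over the same step. The sum of 5 Müller glia markers went from 247 to 968 cpm. The part of either cell type in the rise of Spc25 was not tested.

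**Figure D3:**
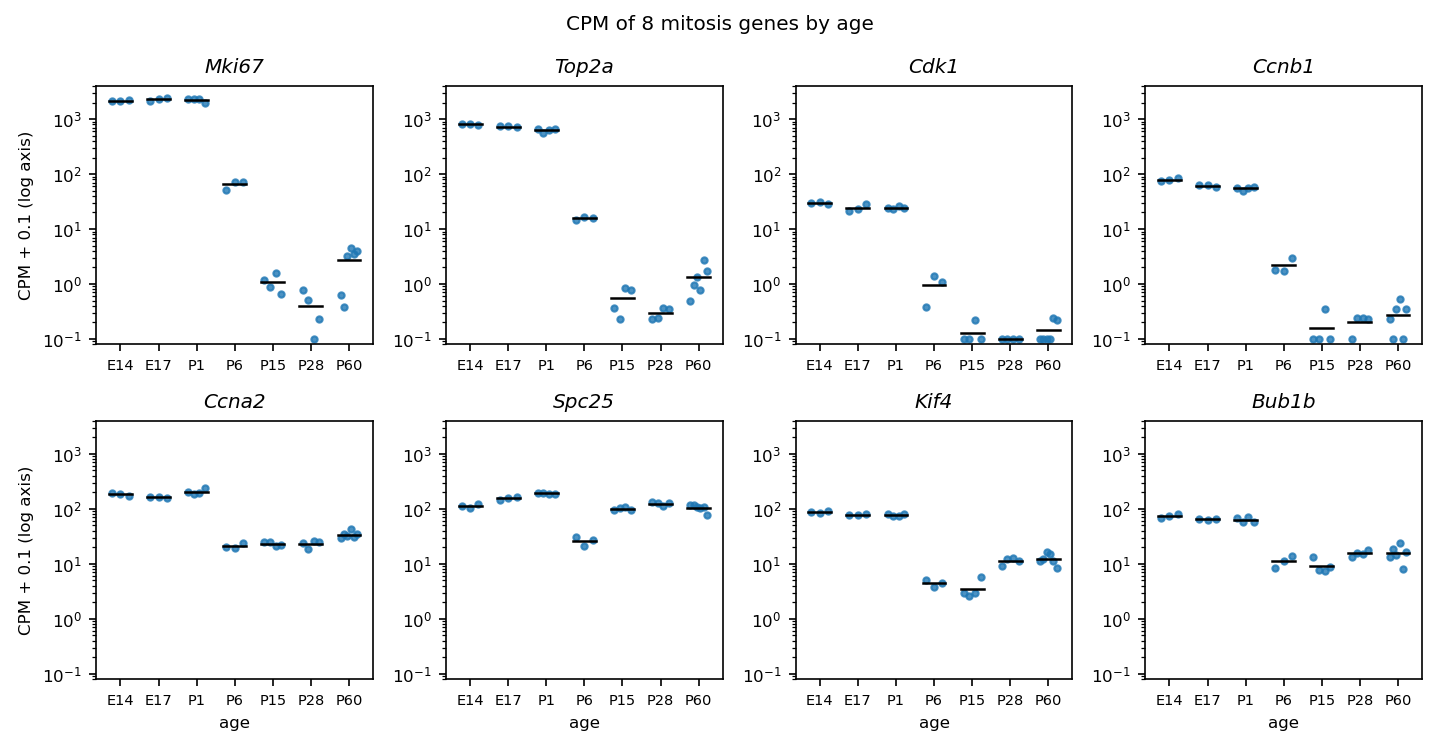
Cpm + 0.1 on a log axis for 8 mitosis genes, with 1 point per library and a bar at the mean of each age. Mki67, Top2a, Cdk1 and Ccnb1 drop towards the floor by P15, Ccna2 has means of 21.2 cpm at P6 and 33.9 at P60, Bub1b has 11.04 at P6 and 15.7 at P60, Spc25 returns to 100.5 cpm at P15, and Kif4 is higher at P28 than at P15.

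The chromosomal passenger complex corrects faulty attachments and guides cytokinesis, and its parts differed in what they kept. Aurkb, the kinase, had 42.4, 45.6, 38.7 and 43.4 cpm at P1 and 0.989, 1.08 and 0.965 at P6, and at P60, where no library had over 3 reads, the E14 mean was at least 99.2-fold higher. Birc5, known as survivin, stood at 1.47%. Incenp, the scaffold, fell from 64.3 ± 12.9 cpm at P1 (SD, n = 4) to 13.9 ± 1.40 at P6 (SD, n = 3; log2 fold change -2.12, SE 0.17, limma adjusted p = 6.13e-12), and was at 16.9 ± 2.72 cpm at P60 (SD, n = 6), 24.7% of E14.

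All 9 kinesins were called lower from P1 to P6, with a median log2 fold change of -3.87, and 3 were called lower again by P15. Kif11, the motor that pushes spindle poles apart, had 229, 220, 227 and 234 cpm at P1, 8.48, 8.33 and 12.3 at P6 and 2.94, 2.63, 3.04 and 3.44 at P15. No group overlapped the next, and the level fell by 4.44 (SE 0.18) and 1.40 (SE 0.18) on the log2 scale (limma adjusted p = 1.62e-19 and 1.48e-07). Kif2c, which takes microtubules apart, had 0, 0.973 and 1.24 cpm at P6 and 0 or 1 read in every P15 and P28 library.

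Kif4 (chrX:100625737-100727214, plus strand), a chromosome-bound kinesin, was the member called higher from P15 to P28. Its P15 libraries had 2.81, 2.502, 2.80 and 5.64 cpm and its P28 libraries 9.19, 12.1, 12.7 and 11.2, with no overlap. It rose by 1.51 (SE 0.16, limma adjusted p = 4.73e-07), in a step where 0.164% of features were called higher, and stood at 14.0% of E14 at P60. Kif4 shares 832 exon bases with Pdzd11 on the other strand, which had 16.4 cpm at P15 and 22.8 at P28, and its part in the rise was not tested.

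The 5 spindle assembly genes fell with a median log2 fold change of -4.52 from P1 to P6. Aspm, a spindle pole protein needed for full brain size, had 379, 340, 368 and 359 cpm at P1, 9.18, 13.2 and 12.4 at P6 and 2.41, 2.63, 2.07 and 2.06 at P15. It fell at both steps, by 4.86 (SE 0.20) and 1.92 (SE 0.20) on the log2 scale (limma adjusted p = 5.5e-19 and 4.88e-09). Hmmr, a microtubule-binding protein of the spindle, fell by 4.63 and 1.42, and was at or under 3 reads in every P28 library. Tpx2, which activates Aurka on the spindle, fell by 4.52 and 1.57. Nusap1 and Prc1, which bundle microtubules, were called at the first step and not at the second, and held 2.6% and 5.93% of E14 at P60.

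Both cytokinesis genes were called lower from P1 to P6. Anln, the scaffold of the contractile ring, went from 74.7 ± 2.73 cpm (SD, n = 4) to 4.42 ± 0.965 (SD, n = 3) and Ect2, which switches on RhoA there, from 84.9 ± 7.22 to 4.67 ± 1.54. Anln fell further by P15 (log2 fold change -1.44, SE 0.22, limma adjusted p = 3.42e-06). The change of Ect2, -0.99 (SE 0.24, limma adjusted p = 0.0019), was just inside the fold limit and was not called, whereas edgeR called it at -1.28 with an adjusted p of 0.00189.

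Across embryonic (E14 and E17) and mature (P15, P28 and P60) ages, 43 of 44 members were called lower, against 16.1% of all features. The median log2 fold change of the 44 was -4.74. Spc25, at -0.28 (SE 0.07, limma adjusted p = 0.000694), was under the fold limit. The range ended at -10.13 for Mki67. Per kilobase of annotated exon, Mki67 was the highest member at E14, at 214 cpm per kilobase, followed by Smc4 at 93.8 and Top2a at 90.4, and Ube2c was the lowest at 3.63. At P60 the order had changed. Spc25 led with 32.9 cpm per kilobase, followed by Smc4 with 9.73, Ccna2 with 8.30 and Ncapd2 with 6.70, and Mki67 had 0.260.

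At P60 the median member stood at 2.57% of E14, whereas the summed cpm of the 44 stood at 4.45%. Shares under 1% were found in 15 of 44, and no P60 library had over 3 reads of Bub1, Aurkb, Cdc20 or Cdk1. The 6 with the highest share were Spc25, Incenp, Bub1b, Ccna2, Ncapd2 and Kif4, from 93.7% to 14.0%. Exons of 15 members share bases with another annotated gene, 13 of them with a gene on the opposite strand, and of these 6 genes Ccna2, Ncapd2 and Kif4 are among the 15.

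Of 70 other genes of mitosis, 61 were called lower from P1 to P6, against 6.74% of all features. The median log2 fold change of the 70 was -2.70, and they stood at a median of 10.7% of E14 at P6 and 5.15% at P60. From P6 to P15, 16 were called lower, against 3.31% of all features, and 2 higher, against 4.74%. The 2 were Kifc1 (log2 fold change 1.08) and Spag5, both named here after their values were seen. Spag5, a kinetochore and spindle protein, went from 3.62 ± 0.70 cpm at P6 to 36.7 ± 2.4 at P15 (log2 fold change 3.04, SE 0.15, limma adjusted p = 2.76e-16). Pbk, Melk and Cdca5 had the smallest shares left. Pttg1, the securin that guards sister chromatid cohesion, had 10.3 ± 1.4 cpm at P60 against 3.88 ± 1.3 at E14, and it, Pkmyt1 and Ncapd3 were not called at any step.

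Of 48 DNA replication genes, 39 were called lower from P1 to P6, against 6.74% of all features. The median log2 fold change of the 48 was -1.90, and their median share of E14 was 76.6% at P1, 18.5% at P6 and 17.1% at P60. On the adjusted p alone, 20 of 48 were lower at P1 than at E14, against 8 of the 44 mitosis genes and 10.6% of all features, a difference between lists that was not tested. Uhrf1, which carries DNA methylation through replication, and Rrm2, a ribonucleotide reductase subunit, fell by 5.20 and 4.03 on the log2 scale from P1 to P6, whereas Gins2 and Rpa1 were not called at that step.

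Of 8 D-type cyclins and cell cycle inhibitors, 3 were called lower from P1 to P6 (Ccnd1, Ccnd2 and Cdkn2c), against 6.74% of all features. Ccnd1, the main D-type cyclin of retinal progenitors, had 1490.3 ± 118 cpm at P1 and 79.5 ± 13 at P6, a fall of 4.22 (SE 0.12, limma adjusted p = 2e-23). Cdkn2c, an inhibitor of its kinase partner, rose by 1.66 from E14 to P1 and fell by 2.91 from P1 to P6, and Cdkn1b was not called at any step, with 136 ± 4.8 cpm at P1 and 92.3 ± 2.5 at P6.

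**Figure D4:**
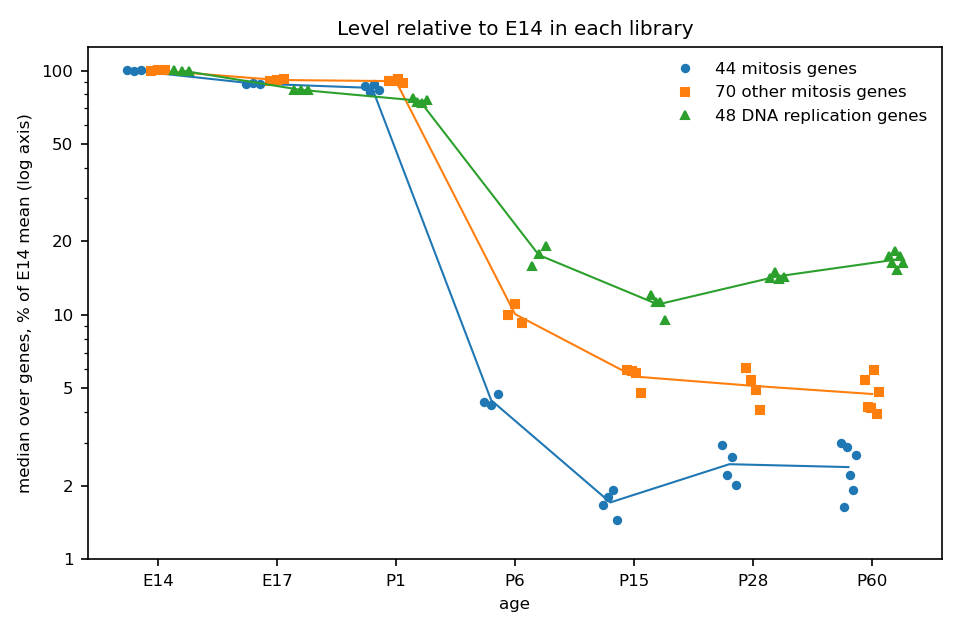
Median over the genes of each list of the level in 1 library as a percent of the E14 mean, on a log axis, with 1 point per library and lines through the mean at each age. The 44 mitosis genes lie below the other lists from P6 onwards, to medians of 4.62% at P6 and 1.70% at P15, where their summed cpm stood at 4.15%.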

How the data were processed

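Whole-retina RNA had been prepared from pools of animals (at P60 also from single mice), made into total RNA libraries, sequenced as short single-end reads, and aligned by the authors with STAR to GRCm38 (mm10, per the labels). The deposited values are CPM (gene counts scaled to library totals), computed by the authors; the gene annotation and strand setting are not given in the sources used here. In each library 100.0% of values were whole multiples of 1 read within 0.01, so reads were recovered for 27 libraries of 7076646 to 11330762 reads. Those 31760 of 38168 features that reached 1 CPM in 3 or more libraries were tested on log2(CPM + 1) with limma 3.58.1 in R 4.3.3, 1 model over all 7 ages with 20 residual degrees of freedom, Benjamini-Hochberg adjustment over all features, and a call at an adjusted p under 0.05 with a log2 change of at least 1. This fold change understates that of low genes. edgeR 4.0.16 (quasi-likelihood) on the recovered reads was an alternative, which from P1 to P6 called 2806 features lower and 3117 higher, against 2141 and 2000 in limma. Further alternatives were other pseudocounts, filters, scalings, a replicate block and leaving out single libraries. Replicates are separate libraries, so p-values measure the spread between them, part of which may be technical. On simulated data limma recovered 194 of 200 genes changed by 1.5 on the log2 scale for P6 against P1 (30478 genes run), with 0 false calls. For the step difference, with 200 genes changed by 2.5, limma made 13 false calls and edgeR 10 (30556 genes run). No gene of low mean level was changed, and all genes had the same spread beyond counting error. Calls on genes near the floor are therefore not covered.

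Members, lists, and tests were chosen with earlier results of these data known. Members described in full are the highest and lowest of each role by mean CPM, the 6 highest and 6 lowest shares of E14 at P60 (with those at or under 3 reads in every library counted as lowest), and those called otherwise than the rest, 26 in all; other members are named as ends of ranges, as promoter examples or to complete a role. Gene positions, exon lengths and overlaps come from GENCODE vM21, and promoters from RefSeq. Intervals and floors cover counting error only.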

Additional observations from a re-analysis of the deposited data

Results flagged for a closer look

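Of 91 sets of 4 to 6 libraries of the members described in full, 8 held a library far from the others of its age by Dixon's criterion, which chance alone meets in about 1 in 20 sets. At P1, Mki67 had 1997 cpm in replicate 4 against 2315 to 2366 in the others, and Cdk1 had 26.2 cpm in replicate 3 against 23.3 to 23.8. At P15, replicate 4 stood apart for Kif4 (5.64 cpm against 2.502 to 2.81) and Bub1 (0.550 cpm, 4 reads, against 0.122 to 0.134). At P28, Nek2 had 0.281 cpm in replicate 2 against 0.629 to 0.677. Replicate 4 of P28 had 0.754 cpm of Aurka against 1.40 to 1.49, and 0.503 cpm of Aurkb, from 4 reads, where the others had 0. At P60, Spc25 had 78.4 cpm in replicate 6 against 103 to 116.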

How the results depend on the processing

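The calls of all 44 members from P1 to P6 and of 43 in the mature to embryonic comparison stayed within 1.5 times under every alternative. From P6 to P15, 16 calls became 26 with a pseudocount of 0.1, 26 in edgeR (26 also with E14 replicate 1 left out, an alternative added after seeing the data), 31 with no minimum fold, and 15 to 21 without single libraries. From P28 to P60, 1 call became 2 with a pseudocount of 0.1, 2 in edgeR (2 without E14 replicate 1), 2 without P60 replicates 1 and 2 (added after seeing the data), 6 with no minimum fold and 0 with only those ages fitted. With no minimum fold the calls were 1 from E14 to E17, 3 from P15 to P28 and 9 from E14 to P1. By the same limit, of all 31760 features 959 were lower and 2400 higher from E14 to E17, and 503 and 361 from P15 to P28. From P6 to P15 they were 6037 and 4573, from P28 to P60 2576 and 1524, and from E14 to P1 3374 and 5461. The step difference gave 41 to 43 calls without single libraries and 33 in edgeR or with a pseudocount of 0.1. The median share of E14 was 86.3% at E17 and 81.1% at P1 under median-of-ratios scaling. Taken from the summed cpm it was 95.6% at E17, 92.4% at P1, 5.98% at P6, 4.15% at P15, 4.75% at P28 and 4.45% at P60. Without single libraries it lay between 88.8% and 90.2% at E17, and between 4.33% and 4.63% at P6. Apart from pseudocount and fold limit, the cause of these shifts was not tested. With the replicate number as a block no count changed, with 44 calls from P1 to P6. Same-numbered libraries correlated at -0.13 to 0.167 in their deviations, so the numbers do not pair them. Levels at or under 3 reads, which 9 members had at P28 and 4 at P60, set the limit of depth.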
